A study of Mus musculus with 12 samples.

Results

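The Bcl2 family apoptosis regulators described here are 10 genes of the 52636 in the deposited kidney table, found by gene name, and all 10 were measured in each of 12 libraries. They fall into 3 roles: the BH3-only genes Bid, Bad, Bbc3, Pmaip1 and Bcl2l11, the pore formers Bax and Bak1, and the survival genes Bcl2, Bcl2l1 and Mcl1. All 10 passed the expression minimum, an FPKM (a fragment count divided by gene length and library size) of at least 1 in at least 3 libraries, as did 13540 genes in all.

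Kidney RNA came from male wild-type C57BL/6 mice of 8 weeks, with 3 libraries in each of 4 groups. The cisplatin+PCN group received daily oral PCN (pregnenolone carbonitrile, a steroid agonist of the pregnane X receptor in rodents) at 40 mg/kg and 1 intraperitoneal dose of cisplatin at 20 mg/kg. The cisplatin group received corn oil and the same dose of cisplatin, a platinum drug that binds DNA and injures the renal tubule. The PCN group received PCN and saline, and the control group corn oil and saline. Oil or PCN was given for 4 days before cisplatin or saline and for 3 days after, and kidneys were taken 4 days after the injection. The groups held between 6 and 8 animals, and the labels do not say whether each library came from its own animal, so that p-values measure the spread between libraries, which may be technical. The treatment text lists the cisplatin group once under PCN and once under corn oil, and the groups used here are those of the library titles.

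Cells that receive death signals commit to apoptosis largely at the outer mitochondrial membrane. Bax and Bak1 encode the proteins that oligomerise there and let cytochrome c out, Bcl2, Bcl2l1 (Bcl-xL) and Mcl1 encode proteins that hold them in check, and BH3-only proteins either neutralise the survival proteins or activate Bax and Bak directly. In the kidney this mitochondrial route is best known from injury of the proximal tubule by drugs and by loss of blood flow, and several of its genes, among them Bax, Bbc3 and Pmaip1, are targets of the p53 protein.

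Reads assigned to genes, as recovered from FPKM, numbered between 18914607 and 26530485 per library, and an FPKM of 1 stood for 18.7 to 27.2 reads per kilobase of gene. On the first principal component, with 80.2% of the variance, the groups with and without cisplatin lay apart. The cisplatin+PCN libraries lay at 21.9, 40.7 and 29.3 and the cisplatin libraries between 51.2 and 62.6, whereas PCN and control libraries lay between -44.9 and -42.1. Cisplatin+PCN library 1 was thus the nearest of the cisplatin-treated libraries to the uninjured ones. The summed level of 8 proximal tubule markers, such as the phosphate transporter gene Slc34a1, was 1382, 621 and 894 FPKM in cisplatin+PCN libraries 1, 2 and 3 and between 552 and 719 FPKM in cisplatin libraries, against 4005 to 4099 FPKM in PCN libraries and 4066 to 4247 FPKM in control libraries. Every one of the 8 markers was above 0 in every library, a low bar at this depth that cannot alone check the labelled tissue.

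The BH3-only gene Bbc3, which encodes PUMA, a binder of all survival proteins, was among the lowest members without cisplatin and changed by the largest factor with it. Bbc3 stood at 10.1, 9.17 and 10.6 FPKM in cisplatin+PCN libraries 1, 2 and 3. It stood at 11.4, 8.32 and 11.04 FPKM in cisplatin libraries. It stood at 0.967, 1.05 and 1.79 FPKM in PCN libraries and at 1.38, 1.42 and 1.07 FPKM in control libraries. All 6 libraries with cisplatin were above all 6 without it, and the 2 cisplatin-treated groups overlapped. The low values rested on few reads, between 44 and 82 per library in PCN kidneys and between 51 and 69 in control kidneys. Bbc3 rose by 2.29 ± 0.14 with cisplatin against control (log2(FPKM + 1) difference, SE; limma's test with Benjamini-Hochberg adjustment over all tested genes, adjusted p = 3.66e-07). On this scale changes of low genes are understated: the ratio of group mean FPKM was 7.92, while the fitted fold was 4.88. Of all tested genes 1.23% had a larger increase.

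Bbc3 lies on chromosome 7 (GRCm38, 16308393 to 16318205, forward strand), and 3 RefSeq start sites of the gene fall in promoter windows that reach from 250 bases before a start to 50 after it. Stretches of 2 of these windows are shown because each carries a motif of a factor class with a known link to Bbc3 or to cell stress. Both are intronic in other transcripts of the gene. In the first, capitals mark overlapping matches to the kappaB site, starting at position -137 from the start site. In the second, capitals mark TTGTTTAC, the core bound by FOXO factors, at position -168. Sequences are those of RefSeq, build GRCm38.p6, read 5′ to 3′ on the gene's strand.
Bbc3, chr7:16309403-16309492 (+): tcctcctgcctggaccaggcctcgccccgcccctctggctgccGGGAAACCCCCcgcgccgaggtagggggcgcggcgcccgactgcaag
Bbc3, chr7:16310051-16310140 (+): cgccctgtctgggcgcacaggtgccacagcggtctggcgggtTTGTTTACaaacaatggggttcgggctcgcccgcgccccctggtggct
Over all 32851 RefSeq windows of the same length, searched on both strands, 8.46% held a kappaB site and 1.23% held TTGTTTAC. A match describes the letters of the window and is not evidence of binding.

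Pmaip1 encodes NOXA, a BH3-only protein that binds mainly MCL1 and promotes its loss. Pmaip1 stood at 10.2, 20.1 and 16.2 FPKM in cisplatin+PCN libraries and at 24.4, 27.3 and 32.0 FPKM in cisplatin libraries. In PCN libraries it stood at 5.22, 7.12 and 5.37 FPKM, and in control libraries at 6.95, 6.89 and 7.06 FPKM. The cisplatin+PCN libraries thus lay between the cisplatin libraries and the uninjured ones, overlapping neither. Pmaip1 rose by 1.85 ± 0.20 with cisplatin against control (adjusted p = 1.39e-05, limma's test) and by 1.22 ± 0.20 with cisplatin+PCN against PCN (adjusted p = 0.000521, limma's test).

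Bcl2l11 encodes BIM, which activates Bax and binds all survival proteins. It stood at 2.90, 2.20 and 2.16 FPKM in cisplatin+PCN libraries and at 3.177, 2.09 and 3.44 FPKM in cisplatin libraries. It stood at 1.18, 1.40 and 1.45 FPKM in PCN libraries and at 1.13, 1.09 and 1.64 FPKM in control libraries. No library with cisplatin fell within the range of those without it. The gene rose by 0.76 ± 0.15 with cisplatin against control (adjusted p = 0.000946, limma's test), and the ratio of mean FPKM was 2.26.

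The other 2 BH3-only genes did not pass the test. Bid, whose protein links death receptors to mitochondria after cleavage by caspase-8, stood at 25.8, 12.8 and 15.3 FPKM in cisplatin+PCN libraries and between 12.4 and 15.5 FPKM in cisplatin libraries, against 14.98 to 16.3 FPKM in PCN libraries and 14.4 to 15.8 FPKM in control libraries. The 1 high value was that of cisplatin+PCN library 1, the library nearest the uninjured ones on the first component. Bad, whose protein is inactivated by survival kinases, ranged from 14.7 to 16.6 FPKM in cisplatin+PCN libraries and from 11.8 to 17.1 FPKM in cisplatin libraries, against 14.2 to 17.1 FPKM in PCN libraries and 16.1 to 17.4 FPKM in control libraries. For cisplatin against control the change of Bid was -0.17 (95% interval -0.59 to 0.25; adjusted p = 0.451, limma's test) and that of Bad was -0.21 (-0.47 to 0.04; adjusted p = 0.131, limma's test). Without cisplatin library 2, Bad was called lower (-0.33, adjusted p = 0.0242, limma's test), and without cisplatin library 3 its change was -0.075 (adjusted p = 0.514). Bid overlaps Bcl2l13 on the opposite strand by 913 bases and Bad overlaps Gpr137 by 590, and since the sources used here do not say whether counting used strand, reads of these pairs cannot be told apart.

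**Figure D1:**
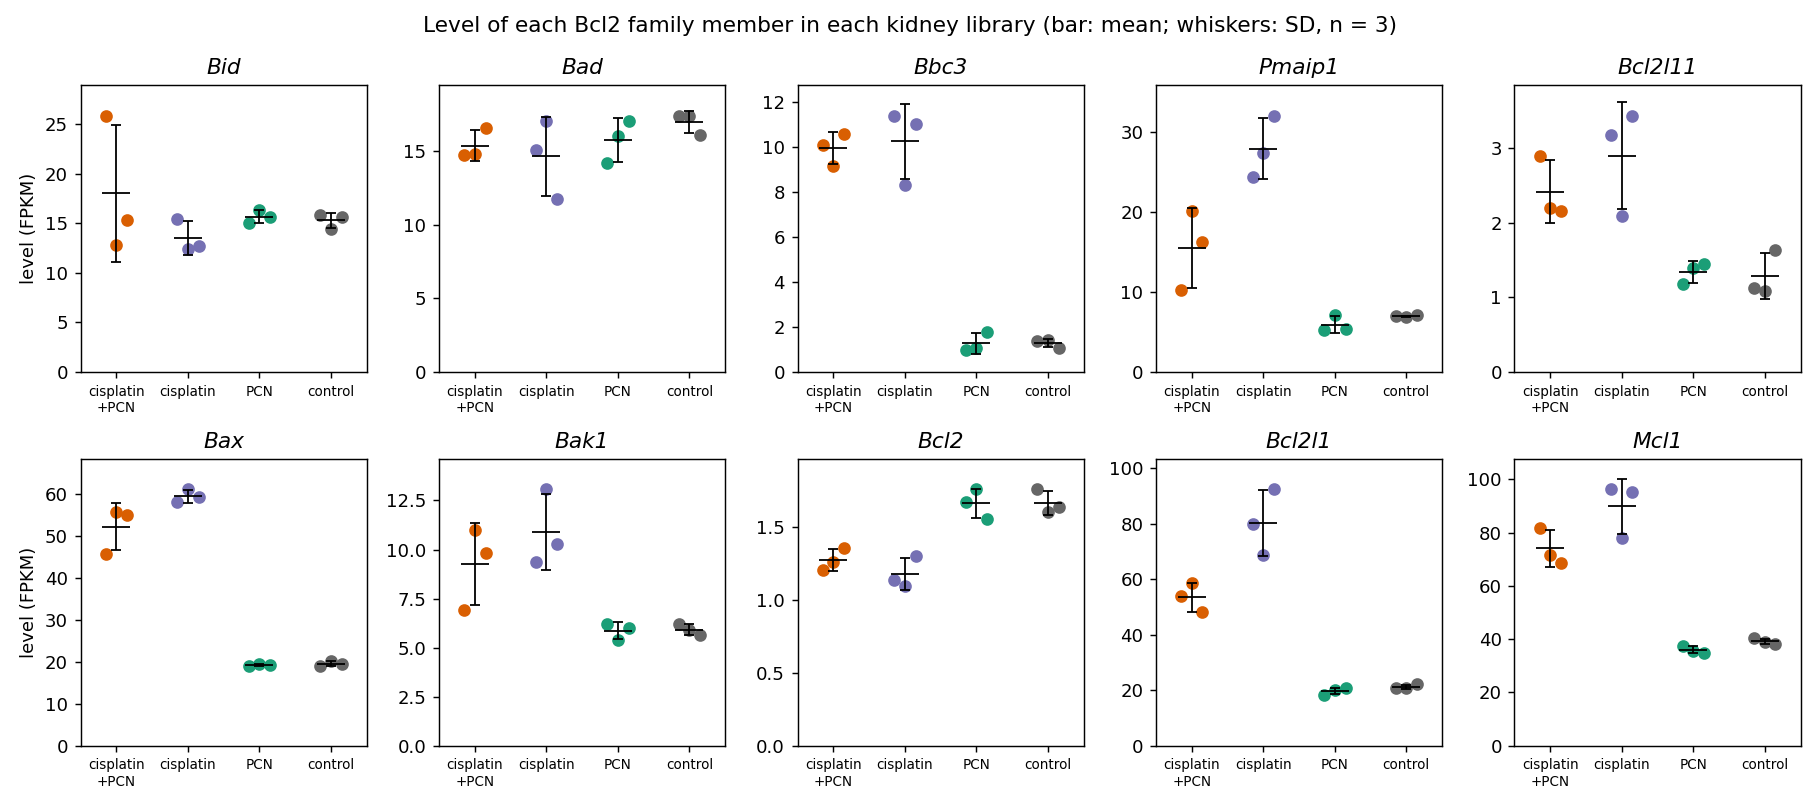
Level (FPKM, linear axis from 0, scaled separately in each panel) of each member in each library, with cisplatin+PCN, cisplatin, PCN and control from left to right. Points are libraries and bars and whiskers are the mean and SD of 3. Bbc3 stood between 8.32 and 11.4 FPKM in the 6 libraries with cisplatin and between 0.967 and 1.79 FPKM in the 6 without, whereas Bid and Bad overlapped across all groups.

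Bax, the pore former that waits in the cytosol and moves to mitochondria when activated, had the smallest adjusted p of the members with cisplatin against control. Bax stood at 45.7, 55.8 and 55.1 FPKM in cisplatin+PCN libraries and at 58.0, 61.1 and 59.4 FPKM in cisplatin libraries. It stood at 19.1, 19.4 and 19.3 FPKM in PCN libraries and at 19.1, 20.1 and 19.5 FPKM in control libraries. The cisplatin-treated groups were above both others with no overlap, and every cisplatin+PCN library was below every cisplatin library. With cisplatin against control Bax rose by 1.55 ± 0.07 (adjusted p = 6.96e-08, limma's test), and 3.27% of tested genes had a larger increase. The protein-coding gene Gm45808, at 0 FPKM in every library, overlaps Bax on the same strand by 915 bases. The sources used here do not say how reads in that overlap were counted, so the level of Bax may be too low.

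Bax lies on chromosome 7 (45461697 to 45466898, reverse strand). The 230 bases before its start site are shown because Bax is a known p53 target. None of them is part of an annotated transcript of Bax, and transcripts of other genes were not searched. Capitals mark a 10-base p53 half-site at position -201 and CACGTG, the E-box bound by MYC and other factors, at position -9.
Bax, chr7:45466899-45467128 (-): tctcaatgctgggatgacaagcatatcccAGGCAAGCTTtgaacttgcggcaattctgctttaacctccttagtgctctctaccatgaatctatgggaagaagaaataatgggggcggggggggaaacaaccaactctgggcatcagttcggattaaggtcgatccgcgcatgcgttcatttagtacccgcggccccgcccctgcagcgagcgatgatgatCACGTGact
Of all windows 8.36% held a p53 half-site and 7.15% held CACGTG. Windows were matched for 9 of the 10 members, 15 in all. The p53 half-site was in 1 of them, a kappaB site in 2, TTGTTTAC in 1, CACGTG in 2, and TTCNNNGAA, the core bound by STAT factors (8.3% of all windows), in 0.

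Bak1, the pore former that resides in the mitochondrial membrane, stood at 6.94, 10.98 and 9.83 FPKM in cisplatin+PCN libraries and at 9.34, 13.1 and 10.3 FPKM in cisplatin libraries, against 6.23, 5.37 and 6.00 FPKM in PCN libraries and 6.22, 5.88 and 5.67 FPKM in control libraries. Cisplatin+PCN library 1 was the lowest of the 6 with cisplatin, above the highest without by less than 1 FPKM. Bak1 rose by 0.77 ± 0.15 with cisplatin against control (adjusted p = 0.000898, limma's test). The gene Ggnbp1 overlaps all 9200 bases of Bak1 on the opposite strand, at 1.07 to 3.47 FPKM of its own, and its share in the Bak1 reads cannot be told apart here.

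Among the survival genes, Bcl2l1 and Mcl1 rose and Bcl2 fell. Bcl2l1, on chromosome 2 (152780668 to 152831728, reverse strand), stood at 53.8, 58.4 and 48.1 FPKM in cisplatin+PCN libraries and at 79.97, 68.7 and 92.3 FPKM in cisplatin libraries. It stood at 18.5, 20.1 and 20.7 FPKM in PCN libraries and at 20.7, 20.8 and 22.1 FPKM in control libraries. The 3 cisplatin+PCN libraries were below the 3 cisplatin libraries and above all others. Bcl2l1 rose by 1.86 ± 0.11 with cisplatin against control (adjusted p = 1.79e-07, limma's test), with 2.21% of tested genes showing a larger increase, next to 2.22% for Pmaip1.

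Mcl1, the short-lived survival protein's gene and the highest member by mean FPKM in all 4 groups, stood at 81.8, 71.6 and 68.7 FPKM in cisplatin+PCN libraries and at 96.2, 77.9 and 95.3 FPKM in cisplatin libraries. It stood at 37.4, 35.7 and 34.8 FPKM in PCN libraries and at 40.3, 39.0 and 38.3 FPKM in control libraries. The 2 cisplatin-treated groups overlapped only through cisplatin library 2. Mcl1 rose by 1.17 ± 0.09 with cisplatin against control (adjusted p = 1.55e-06, limma's test).

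Bcl2, which gave the family its name, was the lowest member with cisplatin. It stood at 1.20, 1.26 and 1.35 FPKM in cisplatin+PCN libraries and at 1.13, 1.10 and 1.30 FPKM in cisplatin libraries, against 1.67, 1.76 and 1.56 FPKM in PCN libraries and 1.76, 1.60 and 1.64 FPKM in control libraries. Every library with cisplatin was below every library without it. Bcl2 fell by 0.29 on the log2(FPKM + 1) scale with cisplatin against control (SE 0.07, adjusted p = 0.00438, limma's test), and the ratio of mean FPKM was 0.707.

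With cisplatin against control, then, 7 of the 10 members rose, 1 fell and 2 did not pass, where 63.9% of all tested genes were called (32.0% higher, 31.9% lower). Since most tested genes were called, the count of 8 called members is not far above the background. The libraries of the 8 did not overlap between the groups, 7 above and 1 below, as for 33.6% and 34.1% of tested genes. The members leaned towards increases: their median signed change was 0.97, against 0.01 over all tested genes. Increases and decreases nearly cancel in the latter, whose 5% and 95% points were -1.28 and 1.26, so these medians do not compare sizes. The list was chosen with earlier results of these data known. Among called members, the direction was mixed within a role only for the survival genes, where 2 rose and 1 fell. Of the BH3-only genes 3 of 5 rose, while Bid (-0.17) and Bad (-0.21) were not called. Of the pore formers 2 of 2 rose.

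These are whole-kidney libraries, in which fewer cells of a type and less RNA per cell cannot be told apart. All 8 proximal tubule markers were lower with cisplatin than in control. Of 7 distal nephron markers 5 were lower, with changes between -3.88 for Pvalb and -0.46 for Umod, and Atp6v1g3 was higher (0.41). The 7 summed to 1816 to 2346 FPKM in cisplatin+PCN libraries and 1265 to 1539 FPKM in cisplatin libraries, against 1913 to 2045 FPKM in PCN libraries and 1786 to 2182 FPKM in control libraries. Of 6 podocyte and endothelial markers 1 was higher and 2 were lower. Of 12 leukocyte markers 6 could be tested, and Cd68, S100a8 and S100a9 were higher (2.57, 2.21 and 2.36) while Csf1r was lower (-1.08). The leukocyte markers summed to 30.7 to 70.5 FPKM in cisplatin+PCN libraries and 63.1 to 79.9 FPKM in cisplatin libraries, against 37.7 to 43.1 FPKM in PCN libraries and 37.1 to 63.5 FPKM in control libraries. Ms4a1 was at 0 in 3 of the libraries with cisplatin, and Nkg7 and Cd3e in 1 each. The part of these cell types in the changes of the members was not tested.

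The same cisplatin contrast was also measured in animals given PCN, with no library in common. The 2 contrasts are not fully independent, since 1 estimate of each gene's spread from all 12 libraries served both and their SEs are equal. Against PCN alone, cisplatin+PCN gave 7 members higher, 1 lower and 2 not called, where 46.9% of all tested genes were called (23.5% higher, 23.4% lower). All 8 members called without PCN were called with it in the same direction, and their libraries again did not overlap (7 above, 1 below; 30.0% and 29.3% of tested genes), while 42.7% of all tested genes were called in the same direction in both. Bbc3 changed by 2.29 ± 0.14 here and by 2.29 ± 0.14 without PCN. Bax rose by 1.39 ± 0.07, Bcl2l1 by 1.39 ± 0.11 and Mcl1 by 1.02 ± 0.09. Bak1 rose by 0.56 ± 0.15 (adjusted p = 0.00953, limma's test) and Bcl2l11 by 0.54 ± 0.15 (adjusted p = 0.0113, limma's test). Bcl2 fell by 0.23 (SE 0.07, adjusted p = 0.0231, limma's test), a call that ended with rescaling without the highest and mitochondrial genes (adjusted p = 0.0629) and without cisplatin+PCN library 1 or 2 or PCN library 1 or 2 (adjusted p from 0.0581 to 0.0822, limma's test). Bid (0.13, 95% interval -0.29 to 0.56) and Bad (-0.03, -0.29 to 0.23) did not pass.

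**Figure D2:**
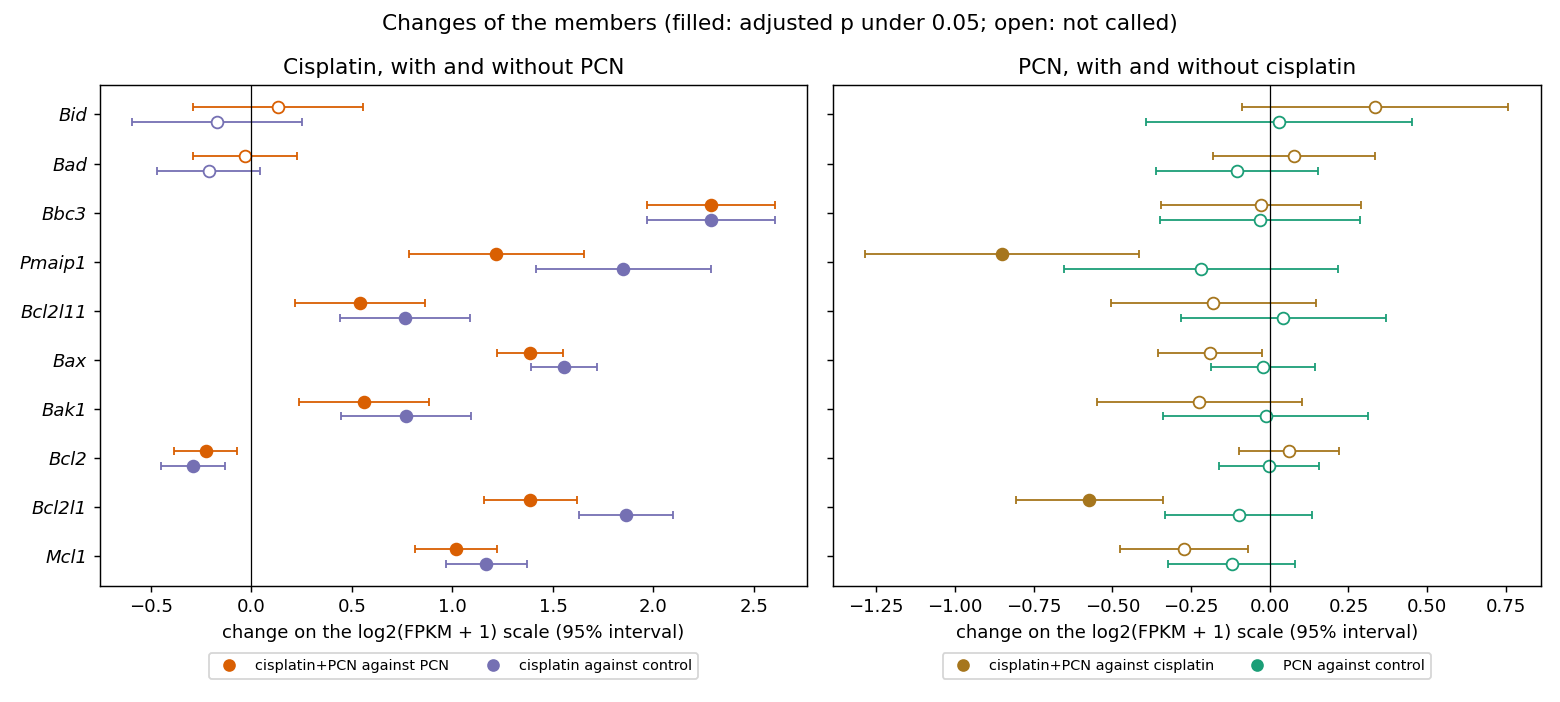
Change of each member on the log2(FPKM + 1) scale with its 95% interval. The left panel sets cisplatin+PCN against PCN and cisplatin against control, and the right panel sets cisplatin+PCN against cisplatin and PCN against control. Filled points passed an adjusted p of 0.05 in limma's test. Changes of Bbc3 were 2.29 in both contrasts on the left, and only Pmaip1 (-0.85) and Bcl2l1 (-0.57) are filled on the right.

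The question of the combined group is how PCN altered the kidney's state under cisplatin. Set against cisplatin alone, 2 of the 10 members passed and both were lower, Pmaip1 and Bcl2l1, where 15.6% of all tested genes were called (7.97% higher, 7.61% lower). The count is near that background. Pmaip1 fell by 0.85 (SE 0.20, adjusted p = 0.0210, limma's test), averaging 15.5 ± 4.997 FPKM in cisplatin+PCN libraries and 27.9 ± 3.85 FPKM in cisplatin libraries (SD, n = 3 each). Bcl2l1 fell by 0.57 (SE 0.11, adjusted p = 0.0105, limma's test), averaging 53.4 ± 5.20 FPKM in cisplatin+PCN libraries and 80.3 ± 11.8 FPKM in cisplatin libraries (SD, n = 3 each). One gene promotes death and the other survival. Both calls ended when the 6 libraries compared were fitted alone (adjusted p = 0.137 for Pmaip1 and 0.122 for Bcl2l1, limma's test), as did nearly all calls of that comparison, with 1 gene left of 2110. The call of Pmaip1 also ended with no expression minimum (adjusted p = 0.0550), without cisplatin+PCN library 3 (0.0545) and without cisplatin library 3 (0.0798, limma's test in each).

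The other 8 members did not pass between cisplatin+PCN and cisplatin. Bax changed by -0.19 (95% interval -0.36 to -0.03; adjusted p = 0.106, limma's test), although its 3 cisplatin+PCN libraries were all below the 3 cisplatin libraries, as were 14.6% of all tested genes. Mcl1 changed by -0.27 (-0.48 to -0.07; adjusted p = 0.0677, limma's test) and was called lower with quantile scaling (adjusted p = 0.0383), with rescaling (0.0366) and with library weights (0.00158, limma's test in each). For Bbc3 the change was -0.03, with an interval from -0.35 to 0.29, so that a change of more than 0.35 in either direction lies outside it. Bid, with its 1 high library, changed by 0.34 (-0.09 to 0.76). Without cisplatin+PCN library 1 the change of Bid was 0.06, and over the libraries left out in turn it ranged from 0.06 to 0.53. Changes of Bad, Bcl2l11, Bak1 and Bcl2 lay between -0.22 and 0.08. Of these Bcl2l11 was called lower with library weights (-0.35, adjusted p = 0.0474, limma's test), against -0.18 without them. Library weights called 5028 of 13540 tested genes in this comparison, against 2110 without them. Of the 8 proximal tubule markers 5 were higher in cisplatin+PCN than in cisplatin libraries and 0 were lower. Of all tested genes 7.97% were called higher and 7.61% lower in this comparison. Of the 7 distal nephron markers 3 were higher (Slc12a3, Aqp2 and Aqp3) and 1 was lower, and of the 6 tested leukocyte markers 0 were called. Their part in the values of Pmaip1 and Bcl2l1 was not tested.

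Since cisplatin against control and cisplatin+PCN against cisplatin share the cisplatin libraries, whether PCN altered the response was read from the interaction, the cisplatin change with PCN minus that without. In limma's test 0 of 10 members passed, as did 15 of all tested genes (0.111%; 0.0739% higher, 0.0369% lower), and 2 members had an unadjusted p under 0.05. For Bcl2l1 the interaction was -0.48 (95% interval -0.80 to -0.15; adjusted p = 0.146) and for Pmaip1 it was -0.63 (-1.25 to -0.02; adjusted p = 0.248, limma's test). For Bbc3 it was 0.00, with an interval from -0.45 to 0.45. The remaining 7 lay between -0.22 and 0.31. Bcl2l1 passed without cisplatin library 2 (adjusted p = 0.0290, limma's test), where 1066 of 13540 tested genes passed, against 15. Bcl2l1 and Mcl1 passed with library weights, where 3130 of the 13540 passed.

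PCN alone against control gave 0 of 10 members called and 0 of all tested genes (0%; 438 genes had an unadjusted p under 0.05 in limma's test, and limma-voom on the recovered reads also called 0). The changes of the members lay between -0.22 for Pmaip1 and 0.04 for Bcl2l11. Every PCN library was below every control library for Bcl2l1 (18.5 to 20.68 FPKM in PCN libraries, against 20.70 to 22.1 FPKM in control libraries) and for Mcl1 (34.8 to 37.4 FPKM in PCN libraries, against 38.3 to 40.3 FPKM in control libraries), as for 7.18% of all tested genes, and 0 members lay the other way (6.12%). Their 95% intervals were -0.33 to 0.13 and -0.32 to 0.08.

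FPKM is scaled by gene length, so levels of the members can be set beside each other, within the limits of the overlaps with other genes given above. In cisplatin+PCN libraries the order by mean FPKM was Mcl1, Bcl2l1, Bax, Bid, Pmaip1, Bad, Bbc3, Bak1, Bcl2l11 and Bcl2, with overlaps between the neighbours Bcl2l1 and Bax, Bid and Pmaip1, Pmaip1 and Bad, and Bbc3 and Bak1. In cisplatin libraries it was Mcl1, Bcl2l1, Bax, Pmaip1, Bad, Bid, Bak1, Bbc3, Bcl2l11 and Bcl2, and the neighbours Mcl1 and Bcl2l1, and each neighbouring pair from Bad to Bbc3, overlapped. In PCN libraries it was Mcl1, Bcl2l1, Bax, Bad, Bid, Pmaip1, Bak1, Bcl2, Bcl2l11 and Bbc3, with overlaps between the neighbours Bcl2l1 and Bax, Bad and Bid, Pmaip1 and Bak1, and Bcl2l11 and Bbc3. In control libraries it was Mcl1, Bcl2l1, Bax, Bad, Bid, Pmaip1, Bak1, Bcl2, Bbc3 and Bcl2l11, and of the neighbours only the last pair overlapped. Pmaip1 had rank 4 in cisplatin libraries and rank 6 in control libraries, and Bbc3 had rank 8 in cisplatin libraries and rank 9 in control libraries.

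The 10 members summed to 244 to 257 FPKM in cisplatin+PCN libraries and 289 to 330 FPKM in cisplatin libraries, against 119 to 124 FPKM in PCN libraries and 129 to 131 FPKM in control libraries. Mcl1 kept nearly the same share of this sum, 29.4% in cisplatin+PCN, 28.8% in cisplatin, 29.4% in PCN and 30.3% in control libraries. The share of Bcl2l1 was 21.2% in cisplatin+PCN and 25.7% in cisplatin libraries, against 16.1% in PCN and 16.4% in control libraries. The share of Bid, whose level did not pass in any of the 5 comparisons, was lower in the groups with the higher sums: Bid took 7.16% in cisplatin+PCN and 4.35% in cisplatin libraries, against 12.8% in PCN and 11.8% in control libraries.

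**Figure D3:**
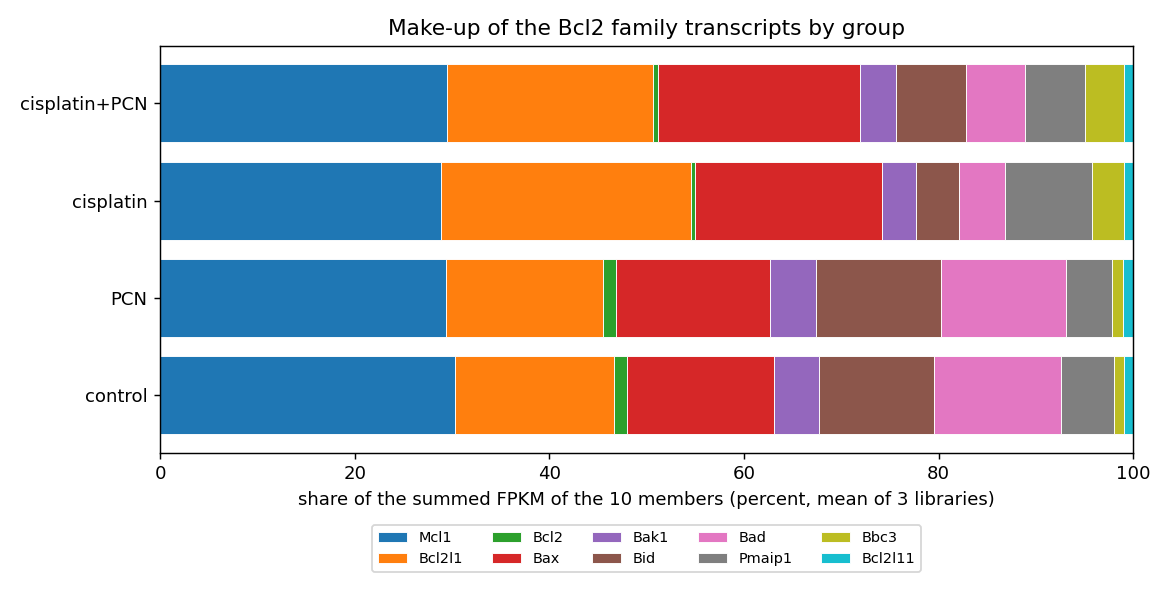
Share of each member in the summed FPKM of the 10 (percent, mean of 3 libraries) in cisplatin+PCN, cisplatin, PCN and control from top to bottom. Mcl1 took between 28.8% and 30.3% in every group, and Bcl2l1 took 25.7% in cisplatin against 16.4% in control.

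The ratio of Bax to a survival gene is often used as an index of the balance between death and survival, and it gave different pictures with different partners. Bax over Bcl2 was 38.0 to 44.4 in cisplatin+PCN libraries and 45.6 to 55.7 in cisplatin libraries, against 11.1 to 12.4 in PCN libraries and 10.8 to 12.6 in control libraries. Bax over Bcl2l1 was 0.850 to 1.15 in cisplatin+PCN libraries and 0.643 to 0.889 in cisplatin libraries, against 0.935 to 1.03 in PCN libraries and 0.885 to 0.967 in control libraries. The cisplatin libraries thus lay below the control libraries for this ratio, apart from 1 within their range, and far above them for Bax over Bcl2. Bax over Mcl1 was 0.559 to 0.802 in cisplatin+PCN libraries and 0.603 to 0.784 in cisplatin libraries, against 0.510 to 0.556 in PCN libraries and 0.474 to 0.516 in control libraries. Bcl2 held only 0.379% of the summed FPKM in cisplatin libraries and 1.29% in control libraries, so the first ratio has a rare transcript below the line. These ratios are descriptions of mRNA within a library, with no test.

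**Figure D4:**
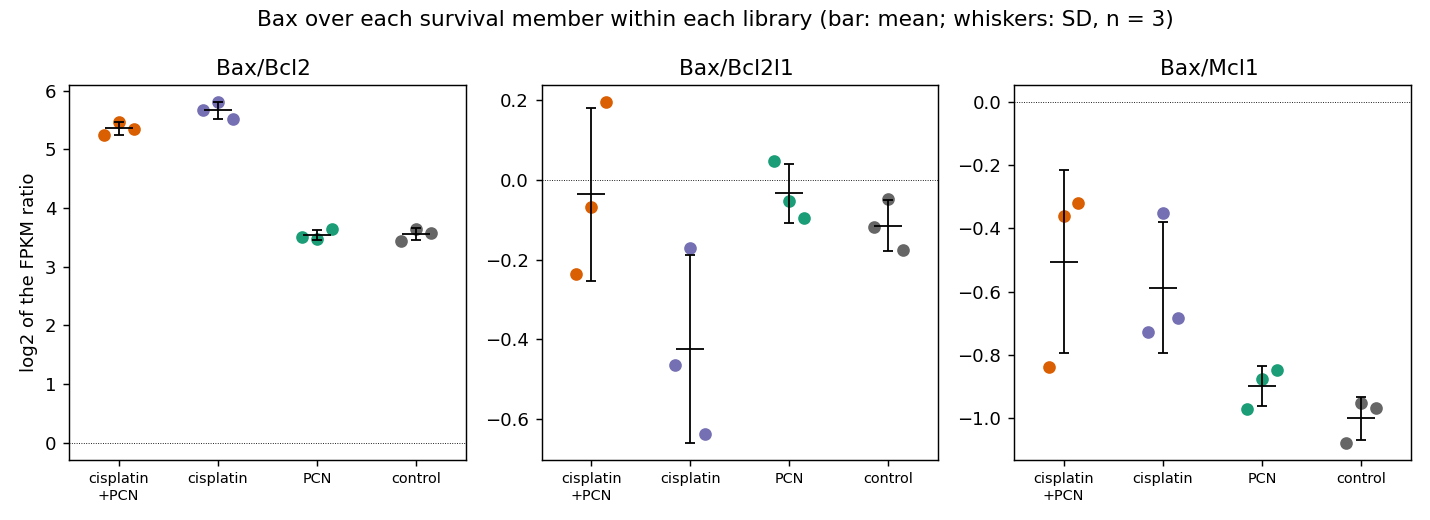
Log2 of the ratio of Bax to Bcl2, Bcl2l1 and Mcl1 (FPKM over FPKM, a separate axis in each panel) in each library, with cisplatin+PCN, cisplatin, PCN and control from left to right. Bars and whiskers are the mean and SD of 3, and the dotted line marks equal levels. For Bcl2 the mean was 5.36 in cisplatin+PCN and 5.66 in cisplatin against 3.54 in PCN and 3.56 in control, whereas for Bcl2l1 it was -0.04, -0.42, -0.03 and -0.11 in the same order.

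Of 15 other Bcl2 family genes 9 were tested, and with cisplatin against control 5 rose and 1 fell (median change 0.45, against 0.01 over all tested genes), a share near the 63.9% of all tested genes that were called. The BH3-only gene Bmf rose by 1.44 ± 0.26, the mitophagy receptor gene Bnip3 by 0.93 ± 0.31 and the BH3-only gene Bik by 0.73 ± 0.13. Bcl2l2, which encodes the survival protein BCL-W, fell by 0.30 (SE 0.09, adjusted p = 0.0123, limma's test). Against cisplatin alone, Bik was lower in cisplatin+PCN libraries (-0.54) and so was Bok, a Bax-like gene (-0.51; adjusted p = 0.0223 and 0.0241, limma's test), and 0 rose. Of all tested genes 15.6% were called in that comparison (7.97% higher, 7.61% lower). Fitting the compared groups alone called 1 gene, against 2110, and calls in this list and those below were not recomputed that way. The BH3-only gene Hrk averaged 0.0465 FPKM or less in every group and was not tested. Nor were Bcl2a1a and Bcl2a1b, near-identical copies whose reads the counting could split.

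Downstream of the pore, the list of apoptosome genes, caspases and their inhibitors held no common direction: with cisplatin against control 7 of 18 tested genes rose and 6 fell (median -0.04), near the 63.9% called over all tested genes. Among those that rose were Birc3, an inhibitor of apoptosis (2.03 ± 0.12), and Apaf1, the scaffold of the apoptosome (0.9999 ± 0.12). Those that fell most encode mitochondrial proteins, Aifm1 (-1.03 ± 0.11), the channel gene Vdac1 (-0.68 ± 0.08) and the nuclease gene Endog (-0.55 ± 0.12). In cisplatin+PCN against cisplatin libraries 3 were lower, among them Birc3 (-0.53) and the inhibitor gene Xiap (-0.26). The 2 that were higher were Endog (0.52) and Aifm1 (0.39). In that comparison 15.6% of all tested genes were called (7.97% higher, 7.61% lower).

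In the death receptor arm, which feeds into Bid, 5 of 10 tested genes rose with cisplatin against control and 2 fell (median 0.25), close to the share called over all tested genes (63.9%). The receptor genes Tnfrsf10b, Tnfrsf1a and Fas rose by 1.63 ± 0.16, 1.57 ± 0.09 and 1.40 ± 0.10. The ligand gene Tnfsf10 (TRAIL) fell by 0.79 and the adaptor gene Fadd by 0.40. In cisplatin+PCN against cisplatin libraries Casp8, whose protein cleaves Bid, was lower (-0.41 ± 0.07, adjusted p = 0.0102, limma's test). Tnfrsf1a changed by -0.30 ± 0.09 (adjusted p = 0.0437, limma's test). These 2 were the only calls of the list in that comparison, in which 15.6% of all tested genes were called.

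Among 12 tested upstream regulators 6 rose with cisplatin against control and 1 fell (median 0.28), not above the 63.9% called over all tested genes. The p53 antagonist gene Mdm2, itself a p53 target, averaged 32.7 ± 6.91 FPKM in cisplatin+PCN and 37.3 ± 7.43 FPKM in cisplatin libraries, against 9.19 ± 0.38 FPKM in PCN and 9.54 ± 0.80 FPKM in control libraries (SD, n = 3 each). Myc rose by 2.40 ± 0.17 and Stat3 by 2.12 ± 0.13, and Trp53bp2, a cofactor of p53, fell by 0.34. The mRNA of Trp53 itself changed by 0.14 ± 0.23 (adjusted p = 0.609, limma's test). In cisplatin+PCN against cisplatin libraries Myc was lower (-0.71 ± 0.17) and so was the stress factor gene Atf4 (-0.32 ± 0.08; adjusted p = 0.0231 and 0.0314, limma's test). With PCN alone against control Myc changed by 0.02 and Atf4 by -0.29, and neither was called. The interaction was -0.73 for Myc and -0.03 for Atf4, also not called. Among 11 genes that act on the turnover or sequestration of Mcl1 and BH3-only proteins 7 rose with cisplatin against control and 0 fell (median 0.38), where 63.9% of all tested genes were called, 32.0% higher and 31.9% lower. The largest changes were those of the kinase genes Pim1 (1.48 ± 0.23) and Pim3 (0.91 ± 0.24) and the chaperone partner gene Bag3 (0.79 ± 0.12). In cisplatin+PCN against cisplatin libraries Bag3 (-0.49) and the 14-3-3 gene Ywhaz (-0.31) were lower. Over all tested genes 15.6% were called in that comparison, 7.97% higher and 7.61% lower.

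Likeness of pattern was measured as the root mean square distance, over 12 libraries, between 2 genes' log2(FPKM + 1) changes from the control mean, among 11799 protein-coding genes. The nearest to Pmaip1 was Tnfrsf1b (distance 0.09), whose own changes were 1.83 (cisplatin against control) and -0.80 (cisplatin+PCN against cisplatin). The nearest to Bcl2l1 were Tmcc3 (0.08) and Nfkbia (0.10), and Nfkbia changed by 1.96 and -0.57 in the same 2 comparisons. Bax lay nearest to Fbxw9 (0.06), Mcl1 to Hip1r (0.10), Bak1 to Gmip (0.06), Bcl2l11 to Vsig10 (0.09) and Bcl2 to Atp6v0a2 (0.05). Bbc3 had the most distant nearest gene, Ucp2 (0.22), followed by Acot2 (0.24). Bad lay nearest to Borcs8 (0.08) and Bid to Slc4a4 (0.12).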

How the data were processed

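The authors deposited FPKM values per gene and library. The submitters' processing notes name HISAT2 2.0.5, featureCounts 1.5.0-p3, DESeq2 1.16.1 and edgeR 3.18.1 without settings, and build mm8, but the table's gene coordinates are those of GRCm38 and are printed as such. Read numbers were recovered as FPKM times length, divided by the smallest such value above 0 in the library, which was taken as 1 read. They came out whole within 0.001 reads. The library totals that FPKM implies were 0.952 to 1.11 times the recovered sums.

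Groups came from library titles. All 12 libraries entered 1 model of 4 group means in limma 3.58.1 (R 4.3.3), with its trend option, on log2(FPKM + 1). The model takes a gene's spread as equal in the 4 groups, which did not hold for all members. Genes needed an FPKM of 1 or more in 3 or more libraries. There were 5 comparisons, two-sided, with Benjamini-Hochberg adjustment over all tested genes and a threshold of 0.05. Exact permutation of 3 against 3 libraries gives no p below 0.1 and was not used. The procedure was run on simulated data with few changed genes and the same spread in every group. These data differ in both respects, so that run does not check the calls made here.

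Members and lists were chosen with earlier results of these data known. The rule for named genes took all 10 members, up to 3 called genes per list and direction in cisplatin against control and in cisplatin+PCN against cisplatin, and the genes nearest in pattern. Other genes named are markers or list members. A few genes meeting it are not reported here. Settings varied were the pseudocount (0.1, 0.5), the expression minimum (none, or a mean of 5 FPKM), scaling (median of ratios, quantile, or rescaled after removal of the 50 highest and all mitochondrial genes), array weights, fitting the compared groups alone, limma-voom on recovered reads, a replicate block, and each library left out.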

Additional observations from a re-analysis of the deposited data

How the results depend on the processing

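Counts of called members and their changes were recomputed under up to 11 other settings and without each of the 12 libraries. The share of Mcl1 was recomputed under 3 scalings, and ranged from 30.0% to 30.3% in control and from 28.8% to 29.0% in cisplatin libraries. It ranged from 29.2% to 29.4% in PCN and from 29.4% to 29.7% in cisplatin+PCN libraries. Median-of-ratios scaling and rescaling apply 1 factor per library, so only quantile scaling could change a share. The Bax ratios were recomputed without each library of the group. With 3 libraries this cannot move a mean by 1 SD, so it is no check on them. The other shares, the other gene lists and the nearest patterns were not recomputed. In cisplatin against control between 6 and 8 members were called under the other settings and 8 or 9 without 1 library. In cisplatin+PCN against PCN the counts were 6 to 8 under the other settings and 7 or 8 without 1 library. The counts of 6 came with a mean FPKM of at least 5, under which low members were not tested. For cisplatin+PCN against cisplatin 1 member was called with no filter, 0 with only the groups compared and 4 with array weights, against 2, and between 1 and 3 without 1 library. For the interaction 2 members were called with array weights, against 0, and 0 or 1 without 1 library. Array weights called 5028 of all 13540 tested genes in cisplatin+PCN against cisplatin and 3130 in the interaction. The interaction could not be fitted with only the groups compared. For PCN against control 0 members were called throughout.

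Mcl1 was called lower in cisplatin+PCN than in cisplatin libraries with quantile scaling (-0.26), rescaling (-0.26) and array weights (-0.42), and without cisplatin+PCN library 1 (-0.35) or cisplatin library 2 (-0.37). Direction turned only among changes that were not called. With rescaling Bad in cisplatin+PCN against PCN was 0.021. With array weights Bad was 0.043 and Bid -0.026 in that comparison, Bbc3 was 0.016 and Bcl2 0.0056 in PCN against control, and the interaction of Bbc3 was -0.041. Without 1 library, cisplatin+PCN against PCN gave -0.15 to 0.33 for Bid and -0.10 to 0.024 for Bad. Cisplatin+PCN against cisplatin gave -0.060 to 0.19 for Bad and -0.16 to 0.047 for Bbc3. PCN against control gave -0.0089 to 0.059 for Bid, -0.19 to 0.064 for Bbc3, -0.017 to 0.15 for Bcl2l11, -0.051 to 0.040 for Bak1 and -0.029 to 0.026 for Bcl2. The interaction of Bbc3 ranged from -0.13 to 0.16. The negative end of Bid in cisplatin+PCN against PCN was the value without cisplatin+PCN library 1.

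Over all genes, cisplatin+PCN against cisplatin called 1008 with no filter, 1 with only the groups compared and 5028 with array weights, against 2110, and 580 to 3390 without 1 library. The interaction called 3130 with array weights, 30 at a mean FPKM of at least 5 and 23 with rescaling, against 15, and 9 to 1066 without 1 library. A mean FPKM of at least 5 gave 5197 for cisplatin against control and 4031 for cisplatin+PCN against PCN, where the main counts were 8649 and 6352. No filter gave 2 for PCN against control. The tested genes numbered 7469 at a mean FPKM of at least 5 and 31636 with no filter, against 13540. Counts under these 2 settings are thus of other sets of genes, and a lower count is not a lower share.

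Replicate numbers are shared between groups, but same-numbered libraries did not all deviate together (correlations of deviations between -0.28 and 0.37), so the numbers were not taken to pair them. With the replicate number as a block, 8, 2, 8, 0 and 0 members were called in cisplatin against control, cisplatin+PCN against cisplatin, cisplatin+PCN against PCN, PCN against control and the interaction, as without the block. The cause of none of these shifts was tested. The level of Bbc3 without cisplatin rests on few reads.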
